A study of Homo sapiens with 12 samples.

Results

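The genes described here encode the machinery by which a cell displays peptides on MHC class I molecules. They are 9 genes of the 20015 rows in the count table, taken by gene symbol after matching the Ensembl identifiers without their version: the class I heavy chains HLA-B, HLA-C and HLA-E, their light chain B2M, the peptide transporter subunits TAP1 and TAP2, the loading chaperone TAPBP (tapasin), and the immunoproteasome subunits PSMB8 and PSMB9. All 9 were found and all 9 had enough counts to be tested. Transcripts were measured in HT29, a human colorectal adenocarcinoma line that here expresses the Cas9 nuclease in every group. The 4 groups of 3 libraries were QRICH1 KO Tm (QRICH1-targeting guide, tunicamycin), QRICH1 KO DMSO (the same guide, solvent), WT Tm (non-targeting guide, tunicamycin) and WT DMSO (non-targeting guide, solvent). Guides were delivered by lentivirus in both genotypes, and tunicamycin (Tm) was given at 0.3 µg/ml for 14 h. The study asks how QRICH1 shapes the transcriptional response to stress in the endoplasmic reticulum (ER), which tunicamycin causes by blocking N-linked glycosylation. Whether the knockout cells were a clone or a pool is not given in the sources used here, and the 3 libraries of a group are called biological replicates in the design text.

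Class I molecules form in the ER. The proteasome cuts cytosolic proteins into peptides, TAP1 and TAP2 pump them into the ER, and tapasin, with calreticulin and the disulfide isomerase PDIA3, holds an empty heavy chain with B2M next to the transporter until a peptide fits. The heavy chains are N-glycosylated, and the complex then travels to the cell surface, where T cells and natural killer cells inspect it. Class I is made by nearly all nucleated cells, and interferons raise most of these genes through IRF1 and the transactivator NLRC5.

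The promoters of 4 of these genes, HLA-B, HLA-C, B2M and TAPBP, are printed here, and matches in the other windows are given below. RefSeq promoter windows, from 250 bases before to 50 bases after a transcription start, were held for 8 of the 9 genes, all but HLA-E, on build GRCh38.p14. HLA-B lies at chr6:31357130-31357429 (minus strand), HLA-C at chr6:31272043-31272342 (minus strand), B2M at chr15:44711267-44711566 (plus strand) and TAPBP at chr6:33314029-33314328 (minus strand). Each is written 5′ to 3′, and the capitals mark matches, on either strand, to 4 motifs: the Y box, the X2 box core, the NF-kB site and the core of the interferon-stimulated response element.
HLA-B: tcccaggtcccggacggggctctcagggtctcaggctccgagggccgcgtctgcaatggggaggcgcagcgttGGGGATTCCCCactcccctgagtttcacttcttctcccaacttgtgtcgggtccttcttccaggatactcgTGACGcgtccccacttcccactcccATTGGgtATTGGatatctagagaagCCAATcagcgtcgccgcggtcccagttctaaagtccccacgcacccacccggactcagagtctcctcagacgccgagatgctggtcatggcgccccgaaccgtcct
HLA-C: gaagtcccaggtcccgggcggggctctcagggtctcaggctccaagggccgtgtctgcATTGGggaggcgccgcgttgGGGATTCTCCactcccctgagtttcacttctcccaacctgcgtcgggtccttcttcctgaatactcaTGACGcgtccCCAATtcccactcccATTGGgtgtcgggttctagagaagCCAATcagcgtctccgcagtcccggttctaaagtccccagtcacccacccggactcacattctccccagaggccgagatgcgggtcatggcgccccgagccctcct
B2M: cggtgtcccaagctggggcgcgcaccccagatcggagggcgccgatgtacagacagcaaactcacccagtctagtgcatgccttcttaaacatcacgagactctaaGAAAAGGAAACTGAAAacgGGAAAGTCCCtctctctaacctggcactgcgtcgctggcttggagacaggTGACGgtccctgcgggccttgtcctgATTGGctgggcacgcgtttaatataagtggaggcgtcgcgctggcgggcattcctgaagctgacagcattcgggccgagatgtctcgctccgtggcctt
TAPBP: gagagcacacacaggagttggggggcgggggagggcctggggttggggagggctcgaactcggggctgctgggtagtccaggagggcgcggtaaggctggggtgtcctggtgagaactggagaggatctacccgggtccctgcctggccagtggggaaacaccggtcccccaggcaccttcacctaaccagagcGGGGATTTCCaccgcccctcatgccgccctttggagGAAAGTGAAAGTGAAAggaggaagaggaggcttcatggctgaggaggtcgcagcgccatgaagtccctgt

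The Y box (CCAAT), bound by NF-Y, and the X2 box core (TGACG), bound by CREB and ATF family proteins, belong to the module through which class I genes are commonly switched on. HLA-B held 3 Y boxes and 1 X2 core, with the X2 core beginning 106 bases before the start, and HLA-C held 4 Y boxes and 1 X2 core beginning 105 bases before it. B2M held 1 of each, whereas the TAPBP window held neither. The PSMB9 window also held both a Y box and an X2 core. TAP1 held a Y box, and TAP2 and the first PSMB8 window held an X2 core. Of all 35116 RefSeq promoter windows, 34.6% held a Y box and 24.6% an X2 core, so single matches are common. The interferon-stimulated response element core (GAAANNGAAA), found in 3.57% of all windows, occurred as 2 overlapping copies in TAPBP, in B2M and in TAP1 and as 1 copy in TAP2 and in the second PSMB8 window. The letters of that core were not in the HLA-B, HLA-C or PSMB9 windows. An NF-kB site, found in 5.91% of all windows, was present in HLA-B, HLA-C, B2M, TAPBP and TAP1, and the HLA-B match was counted on both strands in 2 overlapping frames. The core of the composite site bound by ATF4 (TGATGNAA), a factor of the ER stress response, occurs in 3.62% of all windows, and the ER stress element in 0.0769%. Neither was in any of the 10 windows of these genes. These are matches of letters and were not tested for binding.

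On GENCODE 29 positions (hg38), 8 of the genes lie on chromosome 6 and B2M on chromosome 15 (44711487 to 44718877, plus strand). HLA-E spans 30489467 to 30494205 on the plus strand, HLA-C 31268749 to 31272130 and HLA-B 31269491 to 31357188, both on the minus strand, and TAPBP 33299694 to 33314387 on the minus strand. TAP2 (32821833 to 32838780), PSMB8 (32840717 to 32844703) and TAP1 (32845209 to 32853978) follow each other on the minus strand, and PSMB9 (32844136 to 32859585) lies on the plus strand, overlapping the edge of PSMB8 and all of TAP1 but not TAP2. The RefSeq starts of TAP1 and PSMB9 are 488 bases apart. PSMB8 and PSMB9 share 139 exonic bases on opposite strands, and the libraries did not mark strand, so reads there cannot be given to either. With the noncoding gene PSMB8-AS1, on the strand opposite to both, PSMB8 shares 618 and TAP1 456 exonic bases. PSMB9, on the same strand as PSMB8-AS1, shares 174 exonic bases with it. TAP2 shares 2064 exonic bases on the same strand with AL669918.1, a gene listed at 0 counts in all 12 libraries, and the effect of this overlap on the TAP2 count was not tested, so the level of TAP2 is uncertain. A long HLA-B transcript shares 35 exonic bases with HLA-C. HLA-B also shares 542 exonic bases with the pseudogene AL671883.2 on the opposite strand. Class I heavy chain genes such as HLA-B and HLA-C are also close in sequence and vary between individuals, and the counting of reads that fit several of them is not given in the sources used here, so the split of reads between them is uncertain.

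Total counts ran from 6856736 to 17861844 per library. The floor was set at 3 counts, a rough upper bound for a gene counted at 0, worth 0.168 to 0.438 counts per 1000000 (CPM). This floor reflects counting error alone and may be too low, because PCR duplicates are not independent molecules. Libraries had counts for 13124 to 14094 genes, except QRICH1 KO DMSO 3 with 15340 and QRICH1 KO Tm 3 with 14813. Tm raised HSPA5, the main ER chaperone, 14.6-fold in QRICH1 KO (adjusted p = 1.16e-12) and 25.8-fold in WT (adjusted p = 8.26e-14). QRICH1 mRNA averaged 24.06 ± 0.714 CPM in QRICH1 KO DMSO and 29.61 ± 6.26 CPM in WT DMSO (SD, n = 3 each), a log2 difference of -0.31 that was not called (adjusted p = 0.577), nor was that under Tm (-0.36, adjusted p = 0.352). The transcript level alone therefore does not check the genotype labels. The 7 epithelial markers summed to 56400 to 94800 CPM, although CDX2, an intestinal transcription factor, was at 0.226 to 1.44 CPM. The 8 leukocyte markers summed to 1.29 to 2.54 CPM in QRICH1 KO Tm, 2.63 to 3.0 in QRICH1 KO DMSO, 0.894 to 2.06 in WT Tm and 2.98 to 3.81 in WT DMSO, with CD3E at 0 throughout. The fibroblast, endothelial and class II antigen-presenting lists summed to at most 1.67, 3.04 and 4.68 CPM. Only 1 of the 8 leukocyte markers had enough counts to be tested, and the part of such cells in the results was not tested.

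B2M was by far the most abundant of the 9 genes per length. Levels were divided by the length of the principal transcript and are given as CPM per kb. In WT DMSO the order was B2M (333.4), TAPBP (52.57), HLA-C (36.05), HLA-E (29.49), HLA-B (7.88), PSMB8 (5.10), TAP1 (1.504), TAP2 (0.715) and PSMB9 (0.671). TAP2 and PSMB9 did not differ beyond their spread (0.215 and 0.334, SD, n = 3), whereas TAPBP and HLA-C did (1.86 and 2.16). The order of HLA-C and TAPBP changed with the group. HLA-C was at 60.28 and TAPBP at 45.89 in QRICH1 KO Tm, and both were at about the same level in QRICH1 KO DMSO (47.77 and 47.81). In WT Tm HLA-C was at 53.45 and TAPBP at 42.30. The transporter and immunoproteasome subunits had group means below those of all 3 heavy chains and B2M in every group, and TAP2 and PSMB9 rested on 11 to 38 and 2 to 17 counts per library.

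**Figure D1:**
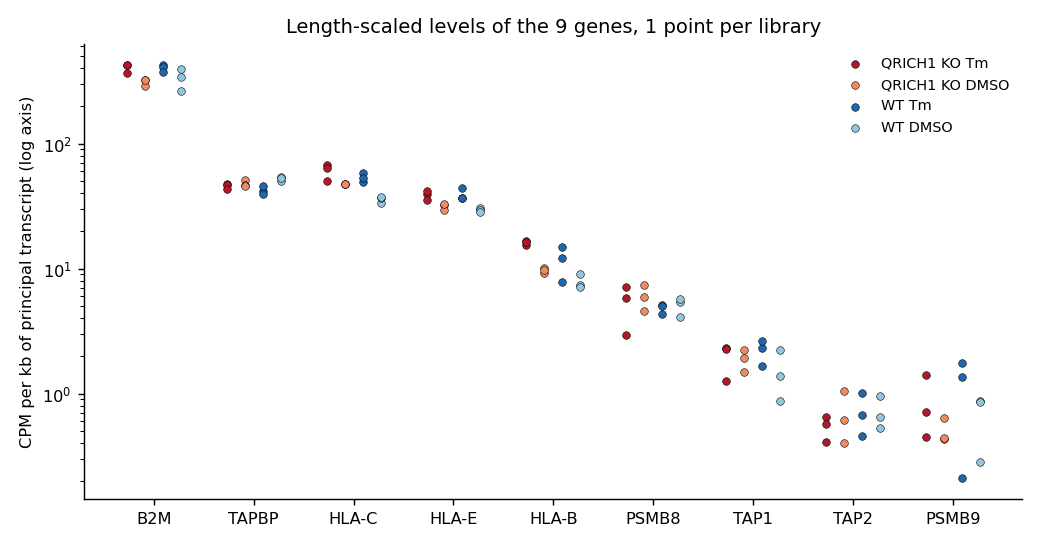
Levels of the 9 genes in CPM per kb of principal transcript, on a log axis, with 1 point per library coloured by group. B2M lies above all other genes in every group, and TAP2 and PSMB9 overlap at the low end.

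Differences between groups were tested for all 11323 genes with sufficient counts by edgeR's quasi-likelihood test, with Benjamini-Hochberg adjustment over all of them, and a gene is said to be called, or to have risen or fallen, at an adjusted p under 0.05. The tests are two-sided. Each treatment comparison shares its libraries with a genotype comparison, so the comparisons are not independent of each other. Bulk RNA cannot separate a change in transcript per cell from a change in the share of cells that express a gene.

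Heavy chain transcripts were higher with Tm: HLA-B rose in both genotypes, and HLA-C and HLA-E rose in WT. HLA-B, a highly variable chain that presents peptides to CD8 T cells, had 25.9, 23.9 and 25.1 CPM in QRICH1 KO Tm and 15.5, 14.2 and 15.1 CPM in QRICH1 KO DMSO. It had 18.8, 23.2 and 12.2 CPM in WT Tm and 11.4, 14.1 and 11.1 CPM in WT DMSO. The QRICH1 KO groups did not overlap, and in WT the third Tm library lay below the second DMSO library. HLA-B rose 1.67-fold with Tm in QRICH1 KO (log2 0.74, SE 0.184, adjusted p = 0.00969) and 1.49-fold in WT (log2 0.58, SE 0.191, adjusted p = 0.0343). Without both QRICH1 KO libraries numbered 3, which had counts for more genes, the value in QRICH1 KO was log2 0.74 with an adjusted p of 0.0515. The call in WT was lost without WT Tm 2 (log2 0.35, adjusted p = 0.228), WT Tm 1 (0.0816), WT DMSO 1 (0.0871) or WT DMSO 3 (0.110). It was also lost with only the compared groups in the fit (log2 0.58, adjusted p = 0.0679), and it held under 15 of 20 alternatives.

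HLA-C, which also serves as a ligand of inhibitory receptors on natural killer cells, rose in WT. It had 103, 97.3 and 77.2 CPM in QRICH1 KO Tm and 73.4, 73.5 and 73.3 CPM in QRICH1 KO DMSO. It had 75.3, 89.8 and 81.2 CPM in WT Tm and 51.6, 56.9 and 57.7 CPM in WT DMSO. Tm and DMSO libraries did not overlap in either genotype, and the QRICH1 KO DMSO libraries lay just below the lowest WT Tm library. HLA-C rose 1.48-fold in WT (log2 0.57, SE 0.120, adjusted p = 0.00193), and this call held under all 20 alternatives tried. In QRICH1 KO the log2 difference was 0.33 (SE 0.118, adjusted p = 0.0632) and was not called. Without QRICH1 KO Tm 3 it was 0.45 (adjusted p = 0.0173), and without both libraries numbered 3 it was 0.45 (adjusted p = 0.0392).

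HLA-E is the less variable chain that presents leader peptides of other class I molecules to the NKG2A receptor. It had 103, 109 and 92.8 CPM in QRICH1 KO Tm and 83.9, 76.4 and 85.5 CPM in QRICH1 KO DMSO. It had 95.5, 115 and 95.6 CPM in WT Tm and 79.3, 77.1 and 73.7 CPM in WT DMSO. In both genotypes every Tm library was above every DMSO library. HLA-E rose 1.33-fold in WT (log2 0.41, SE 0.110, adjusted p = 0.0105), and without WT Tm 2 the call was lost (log2 0.31, adjusted p = 0.0683). In QRICH1 KO the log2 difference was 0.31 (SE 0.109, adjusted p = 0.0615) and was not called, although it was without WT Tm 2, which enters the shared estimate of the spread (adjusted p = 0.0476).

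B2M, the light chain that every class I molecule needs, had 724, 730 and 626 CPM in QRICH1 KO Tm and 547, 496 and 553 CPM in QRICH1 KO DMSO. It had 723, 695 and 643 CPM in WT Tm and 450, 586 and 669 CPM in WT DMSO. The QRICH1 KO groups did not overlap, whereas in WT the DMSO libraries spread from below all Tm libraries to within their range. The log2 difference was 0.38 in QRICH1 KO (SE 0.128, adjusted p = 0.0515) and 0.27 in WT (SE 0.128, adjusted p = 0.137), and neither was called. In QRICH1 KO the adjusted p lay close to the threshold and passed it under 7 of 20 alternatives, among them those without QRICH1 KO Tm 3 (0.0483), WT DMSO 1 (0.0178) or WT DMSO 3 (0.0328). Without WT DMSO 3 the WT difference was log2 0.41 and was called (adjusted p = 0.0342).

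TAPBP went the other way in WT. Tapasin bridges the transporter and the empty class I molecule and edits which peptides are kept. TAPBP had 89.3, 88.3 and 82.3 CPM in QRICH1 KO Tm and 96.4, 88.0 and 86.4 CPM in QRICH1 KO DMSO, with overlap between them. It had 78.4, 86.8 and 74.3 CPM in WT Tm and 102, 95.4 and 100.01 CPM in WT DMSO, with all Tm libraries below all DMSO libraries. TAPBP fell 1.24-fold in WT (log2 -0.31, SE 0.103, adjusted p = 0.0349). This call is near its threshold: it was lost under 8 of 20 alternatives, with adjusted p up to 0.134, including without any 1 of WT Tm 1, WT Tm 3, QRICH1 KO DMSO 2 and the 3 WT DMSO libraries. In QRICH1 KO the log2 difference was -0.06 (adjusted p = 0.757), and the difference between genotypes in the response, log2 0.25 (95% interval -0.05 to 0.56), was not called (adjusted p = 0.79).

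**Figure D2:**
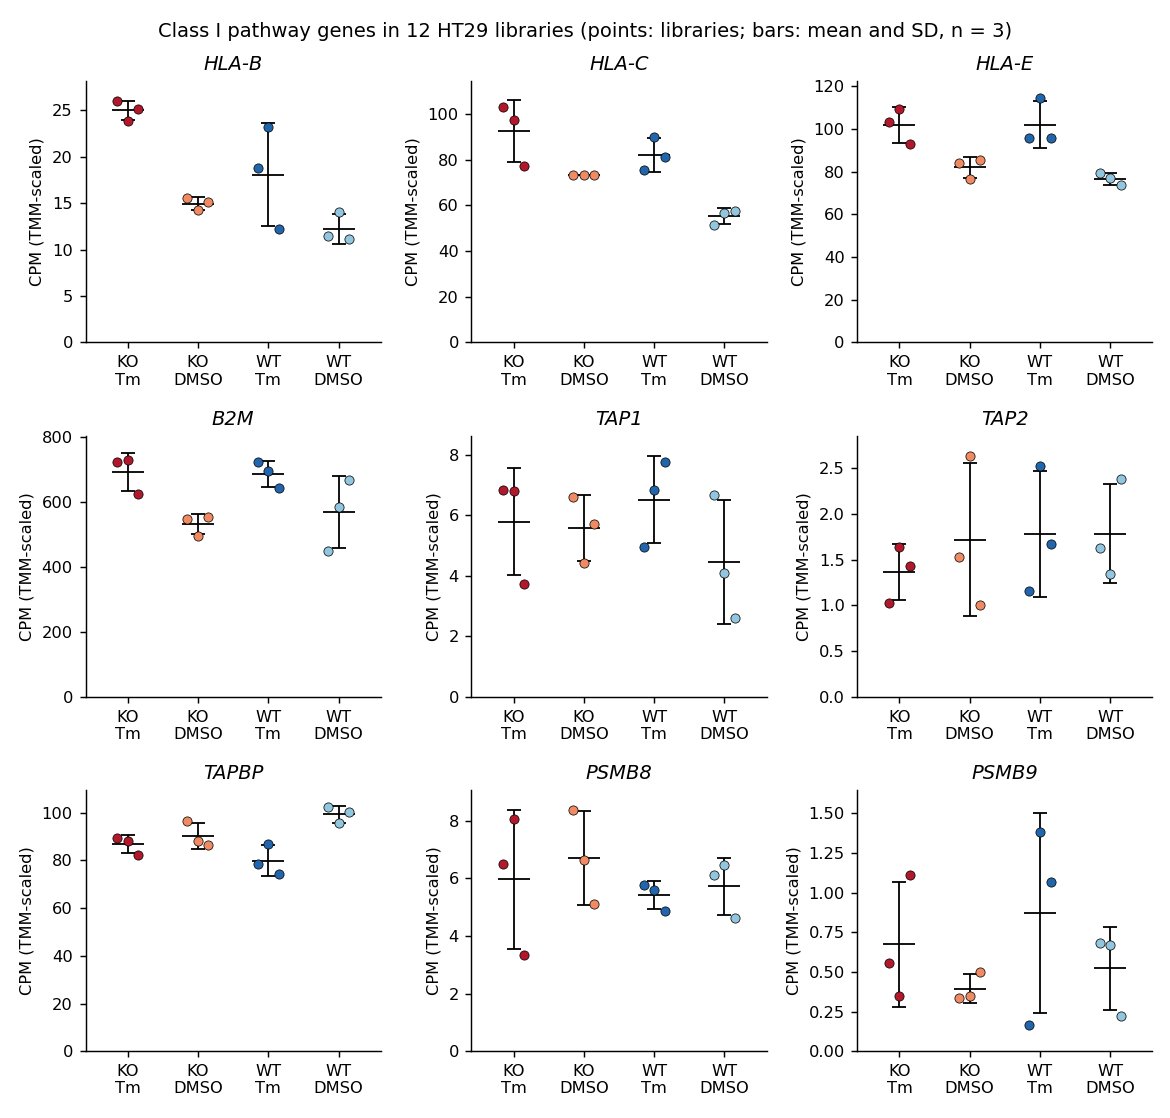
TMM-scaled CPM of each gene by group, on axes from 0, with 1 point per library and bars for the mean and SD (n = 3). HLA-B, HLA-C and HLA-E lie higher in both Tm groups than in the matching DMSO group, apart from 1 WT Tm library of HLA-B, and TAPBP lies lower in WT Tm than in WT DMSO.

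The transporter subunits gave no call with Tm. TAP1 had 6.82, 6.79 and 3.74 CPM in QRICH1 KO Tm and 6.61, 4.44 and 5.69 CPM in QRICH1 KO DMSO. It had 4.95, 6.83 and 7.75 CPM in WT Tm and 6.67, 4.08 and 2.60 CPM in WT DMSO, and the groups overlapped in both genotypes. The log2 difference was 0.04 in QRICH1 KO (95% interval -0.62 to 0.70) and 0.58 in WT (-0.10 to 1.27, adjusted p = 0.219), so that the rise of HLA-B in WT, log2 0.58, lies inside the WT interval of TAP1. TAP2 ran from 1.001 to 2.63 CPM over the 12 libraries, with log2 differences of -0.34 in QRICH1 KO (-1.29 to 0.62) and 0.00 in WT (-0.95 to 0.96). The WT interval of TAP2 includes the log2 differences of HLA-B, HLA-C and HLA-E in WT. Its QRICH1 KO interval includes those of HLA-C and HLA-E in QRICH1 KO, but not that of HLA-B (0.74). No rate of detection was estimated at these counts.

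The immunoproteasome subunits replace constitutive catalytic subunits and change the peptides that are cut. PSMB8 had 6.51, 8.08 and 3.34 CPM in QRICH1 KO Tm, 8.37, 6.65 and 5.13 CPM in QRICH1 KO DMSO, 5.77, 5.61 and 4.87 CPM in WT Tm and 6.12, 6.46 and 4.61 CPM in WT DMSO. All 4 groups overlapped, with log2 differences of -0.19 in QRICH1 KO (95% interval -0.78 to 0.40) and -0.07 in WT (-0.68 to 0.55). Relative to PSMB5, the constitutive subunit in whose place it works, PSMB8 counts were 1.86% to 4.73% in every library. PSMB9 ran from 0.165 to 1.38 CPM, and its log2 differences were 0.80 in QRICH1 KO (-0.69 to 2.28) and 0.72 in WT (-0.77 to 2.21). With 2 to 17 counts per library these intervals cover a fall as well as a rise.

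Read against all genes, 1 of the 9 rose with Tm in QRICH1 KO and 0 fell, where 9.09% of tested genes rose and 6.53% fell. In WT 3 of the 9 rose and 1 fell, where 12.6% of tested genes rose and 11.1% fell. In QRICH1 KO 4 of the 9 lay wholly higher with Tm and 0 wholly lower, against 16.9% and 15.5% of all genes. In WT 2 lay wholly higher and 1 wholly lower, against 19% and 18.5% of all genes. The median log2 difference of the 9 genes was 0.31 in QRICH1 KO and 0.41 in WT, beside -0.00387 and -0.0239 over all tested genes.

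None of the 9 genes was called between the genotypes. Under Tm, QRICH1 KO against WT gave 0 calls among them, where 1.17% of all genes were called. HLA-B came nearest, with 25.9, 23.9 and 25.1 CPM in QRICH1 KO Tm against 18.8, 23.2 and 12.2 CPM in WT Tm, a log2 difference of 0.45 (SE 0.185, adjusted p = 0.3 by edgeR). It was the 1 member whose groups did not overlap, beside 18.5% of all genes in either direction. Under DMSO there were again 0 calls among the 9, where 0.0971% of all genes were called. HLA-C was at 73.4, 73.5 and 73.3 CPM in QRICH1 KO DMSO against 51.6, 56.9 and 57.7 CPM in WT DMSO, a log2 difference of 0.40 (SE 0.119, adjusted p = 0.296 by edgeR). HLA-C and HLA-B (log2 0.29, adjusted p = 0.671) were wholly higher in QRICH1 KO DMSO, beside 13.5% of all genes that did not overlap. An unadjusted p under 0.05 was reached by 1 of the 9 in each of these comparisons, beside 1513 of the 11323 tested genes under Tm and 1027 under DMSO, and DESeq2 also called 0 of them. For HLA-E the 95% interval of the log2 difference ran from -0.24 to 0.23 under Tm and from -0.14 to 0.33 under DMSO.

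Whether the response to Tm differed by genotype was tested by the interaction, which is the log2 difference in QRICH1 KO less that in WT. It was called for 0 of the 9 genes and for 0% of all genes by edgeR, with 0 of the 9 and 774 of all genes at an unadjusted p under 0.05. DESeq2 called 35 genes, of which 0 were among the 9. The values were 0.16 for HLA-B (95% interval -0.39 to 0.72), -0.23 for HLA-C (-0.59 to 0.12), -0.10 for HLA-E (-0.43 to 0.23) and 0.11 for B2M (-0.27 to 0.49). HLA-C and HLA-E, called in WT and not in QRICH1 KO, are therefore not shown to respond differently.

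**Figure D3:**
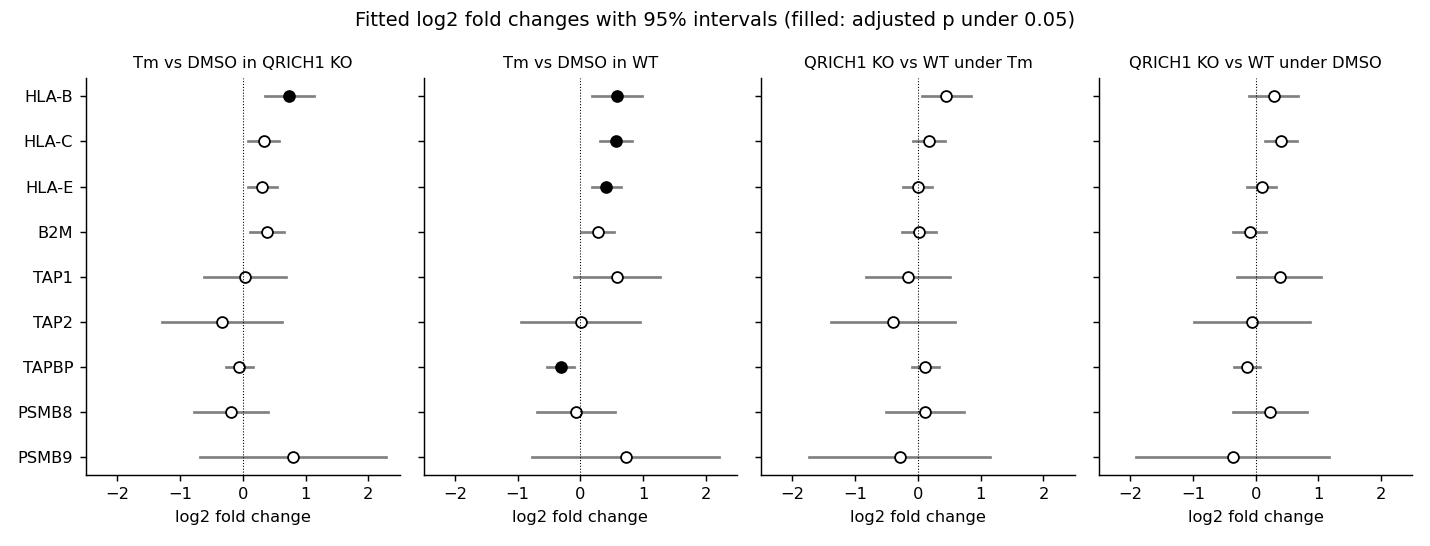
Fitted log2 fold changes of the 9 genes with 95% intervals in the 4 comparisons, with filled points where the adjusted p was under 0.05. Intervals of TAP1, TAP2, PSMB8 and PSMB9 are wide, and no gene is filled in the 2 comparisons of QRICH1 KO with WT.

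Ratios of counts within a library do not depend on how libraries are scaled, and are given as descriptions. TAPBP counts as a percentage of HLA-C counts were 86.5, 90.7 and 107 in QRICH1 KO Tm and 131, 120 and 118 in QRICH1 KO DMSO. They were 104, 96.7 and 91.6 in WT Tm and 198, 168 and 173 in WT DMSO. The Tm libraries were lower than the DMSO libraries in both genotypes, and the QRICH1 KO DMSO libraries lay between the Tm libraries and WT DMSO. Per B2M count, HLA-E stood at 14.7% ± 0.359 in QRICH1 KO Tm, 15.4% ± 0.0714 in QRICH1 KO DMSO, 14.9% ± 1.64 in WT Tm and 13.9% ± 3.38 in WT DMSO (SD, n = 3 each). In QRICH1 KO every Tm library was below every DMSO library in this ratio, and in WT the treatments overlapped. HLA-B per B2M went the other way in QRICH1 KO, at 3.62% ± 0.375 with Tm and 2.81% ± 0.0728 with DMSO, without overlap. In WT it was 2.61% ± 0.728 with Tm and 2.2% ± 0.475 with DMSO, with overlap. HLA-C per B2M was 13.3% ± 0.972 in QRICH1 KO Tm, 13.8% ± 0.854 in QRICH1 KO DMSO, 11.99% ± 1.37 in WT Tm and 9.93% ± 1.44 in WT DMSO.

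**Figure D4:**
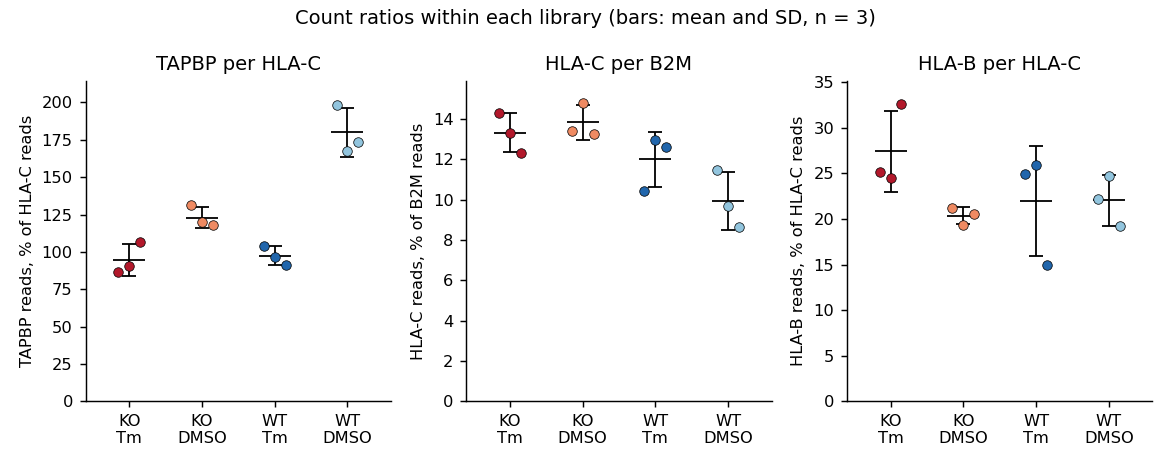
Counts of TAPBP as a percentage of HLA-C counts, of HLA-C as a percentage of B2M and of HLA-B as a percentage of HLA-C, with 1 point per library and bars for the mean and SD (n = 3). TAPBP per HLA-C averages 94.6% and 97.5% in the Tm groups of QRICH1 KO and WT, against 123% and 179.9% in their DMSO groups.

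Over the 12 libraries, log2 CPM of HLA-C and HLA-E had a Pearson r of 0.852 (0.609 after removing group means), and HLA-B had 0.794 with HLA-C (0.211 within groups) and 0.792 with HLA-E (0.513 within groups). HLA-C and TAPBP had an r of -0.565 over all libraries and 0.483 within groups. The libraries fall into Tm and DMSO sets and share depth and scaling, so values over all libraries include the treatment difference. Among other genes with a mean of at least 10 CPM, patterns like that of HLA-B were found for GPRC5A (0.909) and PSENEN (0.901). For HLA-C these were SLC2A1 (0.962), AUP1 (0.954) and PRSS8 (0.941), and for HLA-E YIF1A (0.973), DESI1 (0.96) and SH3BGRL3 (0.958). For B2M they were ENY2 (0.948), PTS (0.936) and LAMTOR5 (0.933), and for TAPBP CHD3 (0.936), TNFAIP2 (0.932) and CYB5B (0.898). The most alike were SETD3 for TAP1 (0.874), MORN1 for TAP2 (0.878) and IDH3A for PSMB8 (0.878).

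Other genes of the pathway were read from lists. Over all tested genes, 9.09% rose and 6.53% fell with Tm in QRICH1 KO, and 12.6% rose and 11.1% fell in WT. The counts called per list are to be read beside these shares. Of 8 other class I and class I-like heavy chain genes, 6 were tested. In QRICH1 KO 1 rose and 1 fell, and in WT 1 rose and 0 fell. The gene that fell was HFE, a class I-like regulator of iron uptake, 2-fold lower in QRICH1 KO (adjusted p = 0.0397). HFE had a log2 difference of -0.85 in WT that was not called (adjusted p = 0.104).

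Of 7 ER folding and quality control genes, all tested, 3 rose and 0 fell in each genotype. PDIA3 rose 3.11-fold in QRICH1 KO (adjusted p = 3.23e-09) and 4.66-fold in WT (adjusted p = 3.57e-11), and CALR (calreticulin) rose 2.38-fold in QRICH1 KO (adjusted p = 4.49e-07) and 3.99-fold in WT (adjusted p = 6.15e-10). UGGT1, which marks unfolded glycoproteins for another round of folding, rose 1.59-fold in QRICH1 KO (adjusted p = 0.0336) and 1.71-fold in WT (adjusted p = 0.0105). CALR was also the one gene of all the lists that was called between genotypes under Tm, 1.53-fold lower in QRICH1 KO (adjusted p = 0.0143). Over all 11323 tested genes, 1.17% were called in that comparison. The interaction for CALR, log2 -0.74, was not called (adjusted p = 0.192 by edgeR).

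Among 9 trimming peptidases, all tested, 2 rose and 1 fell in QRICH1 KO, and 2 rose and 3 fell in WT. The shares over all tested genes were 9.09% and 6.53% in QRICH1 KO, and 12.6% and 11.1% in WT. ERAP1, which trims peptides inside the ER to the length class I binds, rose 2.11-fold in QRICH1 KO (adjusted p = 0.0144) and 1.76-fold in WT (adjusted p = 0.0484). LNPEP, an aminopeptidase of endosomes, rose 1.88-fold in QRICH1 KO (adjusted p = 0.00125) and 1.55-fold in WT (adjusted p = 0.0121). THOP1, a cytosolic peptidase that destroys such peptides, fell 1.37-fold in QRICH1 KO (adjusted p = 0.0239) and 1.42-fold in WT (adjusted p = 0.00955). In WT BLMH and NPEPPS also fell, 1.36-fold and 1.38-fold (adjusted p = 0.0103 and 0.0187). None of the 3 constitutive catalytic proteasome subunits and none of 5 other immunoproteasome subunits and activators was called in either genotype.

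Of 8 ligands of NKG2D, the receptor by which natural killer cells sense stressed cells, 6 were tested: 2 rose in QRICH1 KO, 3 rose in WT and 0 fell in either. ULBP1 rose 3.6-fold in QRICH1 KO (adjusted p = 0.000362) and 5.29-fold in WT (adjusted p = 2.3e-05), and ULBP2 rose 2.35-fold in QRICH1 KO (adjusted p = 0.000417) and 2.8-fold in WT (adjusted p = 4.1e-05). RAET1L rose 2.37-fold in WT (adjusted p = 0.00842). MICA, another ligand, averaged 36.75 CPM in QRICH1 KO Tm and 39.93 CPM in QRICH1 KO DMSO and was not called.

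Of 15 transcriptional regulators of class I genes, 13 were tested. In QRICH1 KO 0 rose and 1 fell, and in WT 1 rose and 2 fell. These counts are near the shares over all tested genes, where 9.09% rose and 6.53% fell in QRICH1 KO, and 12.6% and 11.1% in WT. IRF1, an interferon-induced activator, had 18.2, 15.1 and 19.7 CPM in QRICH1 KO Tm and 19.0, 18.9 and 15.6 CPM in QRICH1 KO DMSO, against 25.2, 26.3 and 20.1 CPM in WT Tm and 13.5, 15.8 and 15.2 CPM in WT DMSO. It rose 1.61-fold in WT (adjusted p = 0.00371) and had a log2 difference of -0.01 in QRICH1 KO, and the interaction of -0.70 was not called (adjusted p = 0.418). RFX5, part of the complex on the X box of class I and class II promoters, fell 1.95-fold in WT (adjusted p = 0.000403) and had a log2 difference of -0.43 in QRICH1 KO (adjusted p = 0.0941). NFKB1 fell 1.40-fold in QRICH1 KO (adjusted p = 0.0245) and 1.45-fold in WT (adjusted p = 0.0107). NLRC5 had 0 to 12 counts per library and was not tested.

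The 7 interferon ligands had at most 12 counts in any library and none was tested, and IFNG and IFNA2 had 0 counts in all 12. Of 9 interferon receptor and kinase genes, 6 were tested and IFNGR1, a chain of the receptor for interferon gamma, was called in each genotype: it rose 1.41-fold in QRICH1 KO (adjusted p = 0.00451) and 1.42-fold in WT (adjusted p = 0.00257). Of 11 class II genes 4 were tested and none was called. HLA-DRB1 was at 0 in all libraries.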

How the data were processed

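The deposited values were raw whole-number counts of reads per gene, in a column for each of 12 libraries. Per the labels' protocols, libraries were made by a modified Smart-seq2 method with Nextera XT, a chemistry without strand marks or molecular identifiers. The submitters' processing notes name Trimmomatic, STAR, DESeq2 and hg38. Neither a counting tool nor an annotation release is given in the sources used here. Of the gene IDs, 19893 matched a symbol and 19972 matched GENCODE 29, which gave positions and transcript lengths. With the version kept, 9210 matched, so the counts may rest on other gene models than these lengths and overlaps.

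Genes were kept by filterByExpr (minimum count 10), scaled by TMM and tested by edgeR 4.0.16 in R 4.3.3 with 4 group means over all libraries (11323 genes). DESeq2 1.42.0 was an alternative. SEs came from the F statistic. The test was checked on simulated data only for changes larger than those called among the 9 genes. That check gives no rate of detection for changes of their size. The text names the 9 genes, up to 4 genes per list by smallest adjusted p in a comparison, and up to 3 genes most like each member (the first only for TAP1, TAP2 and PSMB8). Some genes that this rule selects are not reported here. NLRC5, IFNG, IFNA2 and HLA-DRB1 were named after their values were seen. The members and lists were chosen with earlier results of these data known. P-values weigh a difference against the spread of the 3 libraries around each group mean. That spread was estimated over all 12 libraries together, with information shared between genes. Total counts of 6856736 to 17861844 set the precision.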

Additional observations from a re-analysis of the deposited data

How the results depend on the processing

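Across 20 alternatives the 5 calls among the 9 genes kept their direction, 85 of 100 values stayed called and 15 did not. Of values not called, 11 became called and 47 changed sign without a call on either side. The number of the 9 genes called with Tm in QRICH1 KO was 1, and 2 with DESeq2, with no filter, with a minimum count of 30 and with a fit of the compared groups alone; leaving out 1 library gave 1 to 3. In WT it was 4, 3 with no filter and 2 with the compared groups alone; leaving out 1 library gave 2 to 4. Neither the genotype comparisons nor the interaction called any of the 9 under any alternative.

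Over all genes, 132 were called between genotypes under Tm, 289 with DESeq2, 279 with no filter and 56 to 160 with 1 library left out. Under DMSO 11 were called, 58 with DESeq2, 138 with no filter, 6 with the compared groups alone, 59 without both QRICH1 KO libraries numbered 3 (an alternative chosen after seeing the data) and 5 to 39 with 1 library left out. The interaction called 0, 35 with DESeq2, 44 with no filter and 0 to 4 with 1 library left out. With Tm in QRICH1 KO 1768 were called, and 1109 to 1858 with 1 library left out. The causes were not tested.

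Same-numbered libraries of different groups had correlations of -0.186 to 0.265 in their deviations, and differently numbered ones -0.2412 to 0.2255. The numbers were therefore not taken to pair libraries. Within QRICH1 KO, Tm with DMSO had 0.213 for number 1, 0.00214 for number 2 and 0.265 for number 3. There Tm 1 with DMSO 3 had -0.239 and Tm 3 with DMSO 1 had -0.237. A pairing in QRICH1 KO alone was not tested. A replicate block gave 17 calls under DMSO and left the counts among the 9 genes at 1 and 4 for Tm in QRICH1 KO and WT. TAP2 and PSMB9 had the lowest counts of the 9 genes, and the cause of this was not tested.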
